A study of Mus musculus with 22 samples.

Results

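Genes that mark the endothelium, the lining of blood vessels, were read in ATAC–seq peak lists of labelled adipocyte nuclei, to see how far nuclei of other cells were present. They were Pecam1, Cdh5, Erg, Kdr, Flt1, Tek, Tie1, Emcn and Egfl7, 9 of 21911 protein-coding genes, and were given by name, with no signal value in the rule. A locus was the gene span in the GRCm38 annotation with 20 kb added on each side, and all peaks that overlapped it by at least 1 bp were used. The study asked whether adipocyte chromatin keeps a trace of obesity after weight loss (WL). ATAC–seq reads open chromatin as the stretches of DNA that a transposase reaches, and it was run on epididymal adipose tissue of 22 mice in 8 groups, 1 animal per library. All animals were AdipoERCre x NuTRAP, on a background given as C576BL6 in the labels and as C57BL/N in the methods, and were given tamoxifen when young. An inducible Cre driven in adipocytes tagged their nuclei with biotin, and those nuclei were pulled down with streptavidin beads. Any cell in which the driver was not active should carry no tag.

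Group C was killed at 18 weeks of age on chow and group H at 18 weeks after 12 weeks of high-fat diet (HFD). CC_s was killed at 26 weeks on chow and HC at 26 weeks after 12 weeks of HFD and 8 weeks of chow. CC_l was killed at 31 weeks on chow and HH at 31 weeks after 25 weeks of HFD. CCC was killed at 39 weeks on chow and HHC at 39 weeks after 25 weeks of HFD and 8 weeks of chow. There were 3 libraries per group, but 2 in CC_l and in CCC. In the WL period controls and formerly obese mice alike ate another chow, so the diet of CC_s and CCC was not that of C and CC_l. Adipocyte genes were open in every library, which does not measure how pure the nuclei were. All 12 genes of an adipocyte list, from Adipoq (adiponectin) to Lpl (lipoprotein lipase), had a promoter peak in 22 of 22 libraries, where a promoter peak is a peak within 2000 bp of an annotated start site.

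Endothelial cells line every capillary of adipose tissue and take up fat for the adipocytes around them. Vascular endothelial growth factors act through Kdr and Flt1, and angiopoietins through Tek, with Tie1 as its partner receptor. Cdh5 (VE-cadherin) and Pecam1 hold neighbouring cells together, Emcn is a surface glycoprotein of capillaries and veins, Egfl7 is a secreted protein of vessels, and Erg is the ETS-family transcription factor that keeps these genes on. Adipocytes secrete several of the ligands.

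Promoter sequences from RefSeq (GRCm38.p6) matched 7 of the 9 genes, and 5 are shown because the peaks at the start sites of these receptors and of Erg are described one by one. Each is the 250 bases before a start site, 5′ to 3′ on the strand of the gene. Kdr lies at chr5:75978456-75978705 on the minus strand, Flt1 at chr5:147726012-147726261 on the minus strand, Tek at chr4:94739039-94739288 on the plus strand, Tie1 at chr4:118489850-118490099 on the minus strand, and the internal start of Erg at chr16:95459349-95459598 on the minus strand. Capitals mark CAGGAA or CCGGAA, core letters bound by ETS factors such as Erg, on either strand.
Kdr: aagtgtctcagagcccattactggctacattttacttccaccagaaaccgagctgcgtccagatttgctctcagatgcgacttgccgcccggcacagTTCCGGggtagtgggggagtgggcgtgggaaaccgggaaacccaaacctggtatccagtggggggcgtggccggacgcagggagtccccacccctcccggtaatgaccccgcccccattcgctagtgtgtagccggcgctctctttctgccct
Flt1: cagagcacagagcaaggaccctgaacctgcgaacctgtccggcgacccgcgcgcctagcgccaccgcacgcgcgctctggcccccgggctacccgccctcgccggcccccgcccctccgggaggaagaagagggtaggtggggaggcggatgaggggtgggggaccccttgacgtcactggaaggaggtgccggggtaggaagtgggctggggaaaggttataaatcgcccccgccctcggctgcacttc
Tek: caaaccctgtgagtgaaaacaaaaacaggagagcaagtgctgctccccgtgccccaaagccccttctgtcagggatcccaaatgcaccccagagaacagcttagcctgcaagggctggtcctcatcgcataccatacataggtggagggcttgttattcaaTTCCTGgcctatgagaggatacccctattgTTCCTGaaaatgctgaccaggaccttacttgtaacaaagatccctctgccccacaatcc
Tie1: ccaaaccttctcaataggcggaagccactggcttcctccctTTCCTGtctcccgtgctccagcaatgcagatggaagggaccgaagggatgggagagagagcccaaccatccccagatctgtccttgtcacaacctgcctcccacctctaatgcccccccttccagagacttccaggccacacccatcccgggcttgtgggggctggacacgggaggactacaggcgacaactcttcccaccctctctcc
Erg internal start: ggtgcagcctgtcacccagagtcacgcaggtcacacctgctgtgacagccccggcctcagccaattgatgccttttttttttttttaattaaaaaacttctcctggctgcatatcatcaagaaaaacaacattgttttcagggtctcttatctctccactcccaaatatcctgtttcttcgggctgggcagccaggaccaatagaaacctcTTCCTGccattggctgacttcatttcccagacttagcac
Tek held 2 matches, Kdr, Tie1 and the internal start of Erg held 1 each, and Flt1 held none. Over the full windows of 300 bases, which run 50 bases past the start, CAGGAA was found in 6 of 11 windows of the 7 genes and in 28.5% of all 20150 coding-gene windows. CCGGAA was found in 1 of 11 against 19.2%. The windows of the endothelial genes were poor in CpG, with a median observed-to-expected ratio of 0.289 against 0.588 over all windows, and the adipocyte list was as poor at 0.221. Kdr at 0.689 and Flt1 at 0.78 were the CpG-rich ones among the 5 shown.

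The libraries held 40528 to 60523 peaks on the chromosomes used, which covered 128 to 299 Mb. The lists give the summed and the maximum signal of each peak and no read counts, so depth is unknown, and a locus without a peak is one where none was detectable at the depth of its library. The median maximum signal of a peak ranged from 17 in HC 3 to 107 in C 3, and lay under 40 in HC 3, HHC 3, HH 1, CCC 2 and HHC 1. Libraries of low signal had short peaks, with a median width of 1844 bp in HC 3 against 4042 bp in HHC 2. In single libraries HC 3 and HHC 3 also stood apart, with 35.3% and 33.8% of all regions called in 1 library only. The short arm (C, H, CC_s, HC) and the long arm (CC_l, HH, CCC, HHC) are also 2 series of libraries, so arm and library series cannot be told apart.

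Endothelial promoters were mostly without peaks. Of 198 pairs of gene and library, 52 had a promoter peak (26.3%), against 60.2% over all protein-coding genes and 100% for the adipocyte list. Egfl7 gave 22 of the 52, and without it the share was 30 of 176, or 17.0%. A second list of 18 endothelial genes stood higher, at 48.5%, with 4 of its genes open in all 22 libraries. Progenitor genes had 76.7%, pericyte and smooth muscle genes 61.4%, macrophage and leukocyte genes 38.3% and mesothelial genes 31.8%. A list of 12 genes of other organs had 19.7%. Of these, Apoa2 (a liver apolipoprotein) had a peak in 22 libraries and Myh6 (heart myosin) in 0. Peaks at the promoters of the 8 endothelial genes other than Egfl7 were also small. There were 34 of them, with a median width of 2320 bp, and in maximum signal the median one stood at percentile 31.3 of the peaks of its own library. Among the 10000 strongest peaks of each library, Erg kept a promoter peak in HH 1 and CCC 2, Flt1 in HC 3 and Egfl7 in 22 libraries, and the other 6 genes had none.

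**Figure D1:**
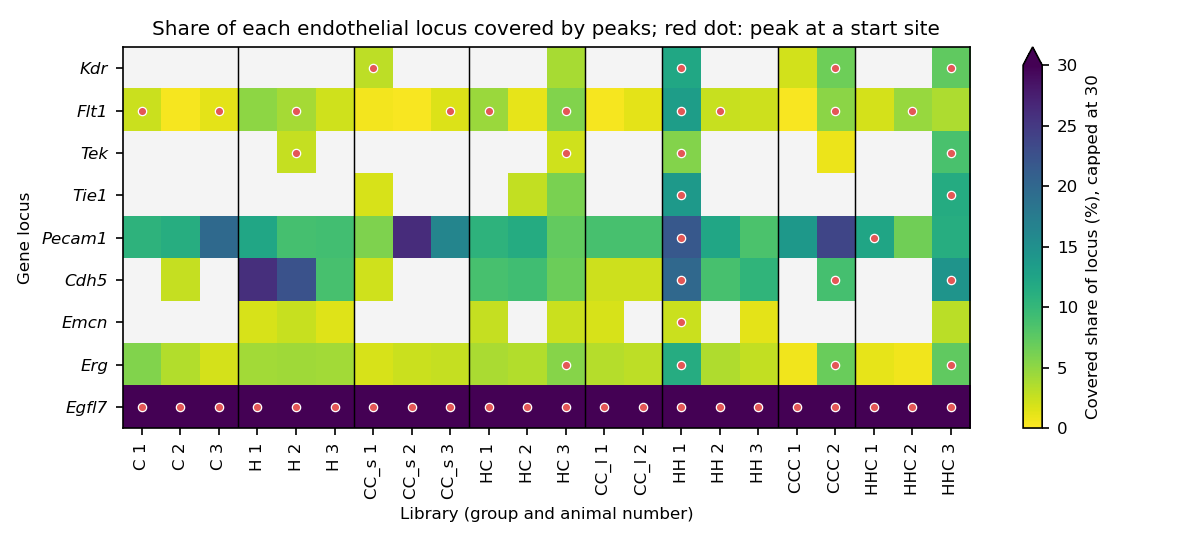
Share of each of 9 endothelial loci (rows) covered by peaks, in percent, in each of 22 libraries (columns; vertical lines part the 8 groups). Pale grey is no peak, the scale is capped at 30%, and a red dot marks a peak within 2000 bp of a start site; HH 1 has a dot in all 9 rows, and Egfl7 has one in every library.

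Kdr, the main signalling receptor for VEGF-A (chr5:75932827-75978458, minus strand), was without any peak in its locus of 85.6 kb in 16 of 22 libraries. The median covered share was 0%. The highest were 12.1% in HH 1, 7.35% in HHC 3, 6.60% in CCC 2, 3.97% in HC 3, 3.01% in CC_s 1 and 2.00% in CCC 1. A promoter peak was called in CC_s 1, HH 1, CCC 2 and HHC 3, with maximum signals of 15, 38, 20 and 21. The highest points lay at 213, −172, −220 and −140 bp from the start site. No C, H or CC_l library had a peak at Kdr.

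Flt1, the other VEGF receptor and also the source of a soluble decoy form (chr5:147561604-147726011, minus strand), had a promoter peak in 10 libraries, the most of the 8 genes after Egfl7 is set aside. They were C 1, C 3, H 2, CC_s 3, HC 1, HC 3, HH 1, HH 2, CCC 2 and HHC 2. These were spread over 7 of the 8 groups, and only CC_l had none. Relative to the nearest start, the highest point lay at −1216 to −1140 bp in C 1, C 3, H 2, CC_s 3, HC 1 and HHC 2. It lay at −433 bp in CCC 2 and at 270 to 377 bp in HC 3, HH 1 and HH 2. The covered share of the locus was 0.271% to 13.3%, highest in HH 1. Most of the Flt1 locus signal was elsewhere. One intronic region, chr5:147610541-147612297, was called in 22 of 22 libraries with a maximum signal of 241 to 741. Its height lay at the 97.6th to 99.9th percentile of each library although its peaks covered only 239 to 1204 bp, and it held a median of 67.8% of the summed Flt1 signal. This height did not follow the library's own, since it was 466 in HC 3 where the median peak was 17. What the region holds was not tested.

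Tek, the angiopoietin receptor (chr4:94739289-94874976, plus strand), had no peak in 17 libraries. It was covered by 8.65% in HHC 3, 5.60% in HH 1, 2.59% in H 2, 2.13% in HC 3 and 0.917% in CCC 2, and the first 4 of these had a promoter peak. All of those promoter peaks covered a start site, with maximum signals of 20, 31, 38 and 14. Tie1 (chr4:118471191-118490061, minus strand) had no peak in 17 libraries either. It was covered by 13.8% in HH 1, 11.5% in HHC 3, 6.01% in HC 3, 2.72% in HC 2 and 1.82% in CC_s 1. Its promoter peak in HH 1 covered a start site with its highest point 80 bp after it, while the highest point of the one in HHC 3 lay at −2542 bp. Tek and its partner receptor Tie1 were thus both without peaks in every C and every CC_l library. Tie1 was without them in every H and every CCC library too, and Tek in every CC_s library.

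Pecam1 (chr11:106654217-106750628, minus strand) was the gene with the most peaks away from its start. It was covered by 5.84% to 26.2% of its 136.4 kb, with a median of 11.3%, and CC_s 2 was highest. Regions inside the gene at chr11:106655304-106662068 and chr11:106668826-106686713 were called in all 22 libraries. A promoter peak was called in HH 1 and HHC 1 only. That of HH 1 had its highest point at −13 bp from a start with a maximum signal of 17, and that of HHC 1 lay over the start of the neighbouring Milr1, a mast cell receptor gene. Milr1 had a promoter peak in 1 library. So 22 libraries had open chromatin within Pecam1 and 1 had it on a Pecam1 start site.

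Emcn (chr3:137341067-137432185, plus strand) was covered by 0% to 3.16%, the lowest maximum of the 9. It had a promoter peak in HH 1 alone, with a maximum signal of 21 and its highest point 508 bp after the start. A peak lay somewhere in the locus in 9 libraries, namely H 1, H 2, H 3, HC 1, HC 3, CC_l 1, HH 1, HH 3 and HHC 3.

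Erg (chr16:95359169-95586593, minus strand) had peaks in every library but covered only 0.644% to 11.4% of its 267.4 kb, again highest in HH 1. A promoter peak was called in HC 3, HH 1, CCC 2 and HHC 3, in each case over the internal start whose sequence is given above. The peaks there were 1664 bp wide in HC 3, 9209 bp in HH 1, 7401 bp in CCC 2 and 1909 bp in HHC 3. The highest points lay at −11, −1144, −106 and −18 bp from the start. No library had one at the most upstream Erg start.

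Egfl7 (chr2:26580014-26593120, plus strand) went against the other 8. It had a promoter peak in 22 of 22 libraries and its locus of 53.1 kb was covered by 48.2% to 100%, with a median of 86.1%. The locus is shared. Agpat2, an enzyme of triglyceride synthesis abundant in adipocytes, runs toward Egfl7 on the other strand and overlaps its end by 64 bp, and Gm20532 also starts inside the locus. Both had promoter peaks in 22 libraries. In 18 libraries 1 peak covered an Egfl7 start site window and the Agpat2 start together. The tallest peak at the Egfl7 starts was 2.0 to 101.4 kb wide with a median of 48.3 kb. In 18 libraries its highest point lay nearer the Agpat2 start, and in 17 of these it lay 4970 to 5096 bp from that start and 17867 to 17993 bp from the nearest Egfl7 start. In HC 3, HH 1, CCC 2 and HHC 3 it lay nearer an Egfl7 start, at 381, 2508, 390 and 53 bp. These are the same 4 libraries in which the internal Erg start had a peak. All 4 are libraries of low signal, and the part of that in the shift was not tested. The locus held 10 peaks in HC 3, 8 in HHC 3 and 1 to 6 in the other libraries.

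**Figure D2:**
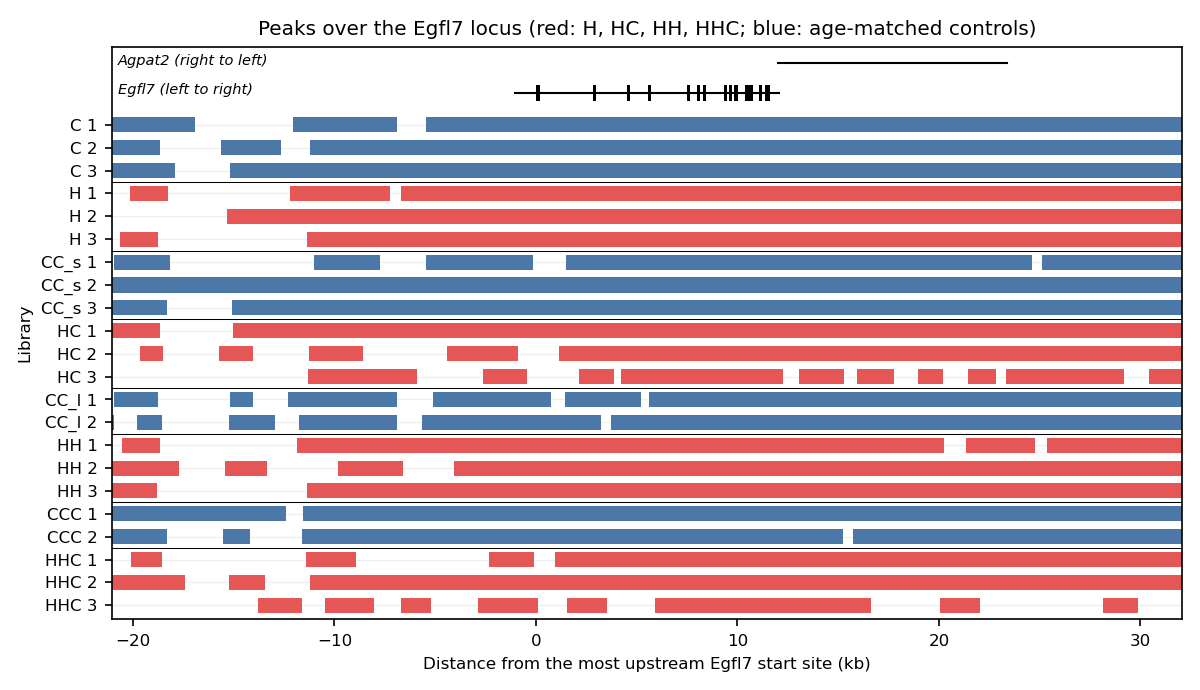
Peaks (bars) over the Egfl7 locus in each of 22 libraries, as distance in kb from the most upstream Egfl7 start site, with the gene lines of Egfl7 (exons as boxes) and Agpat2 above. Red bars are H, HC, HH and HHC, blue bars their age-matched controls; most libraries have 1 long peak that spans both genes, while HC 3 and HHC 3 have 10 and 8 shorter ones.

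HH 1 was the library in which endothelial start sites were open as a set. It had promoter peaks at 9 of 9 endothelial genes, HHC 3 at 6, CCC 2 at 5 and HC 3 at 4, and the other 18 libraries at 1 to 3. The second list of 18 endothelial genes went the same way. HH 1 had 17 of the 18, CCC 2 had 15, HHC 3 had 13 and HC 3 had 12, against 6 to 11 elsewhere. In that list Cldn5 (a tight-junction protein) had a promoter peak in 22 libraries and Vwf (von Willebrand factor) in 1. The 4 libraries belong to 4 different groups, HH, HHC, CCC and HC, and are 4 of the 5 libraries with a median maximum signal under 40. The remaining one, HHC 1, had 2 of 9 and 7 of 18. Without the 5 libraries the 9 genes had promoter peaks in 26 of 153 pairs (17.0%), against 60.4% over all genes. Without Egfl7 the 8 had 9 in 17 libraries. The part of signal depth in these peaks was not tested.

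HH 1 stood at the top of the 22 libraries for pericyte and progenitor genes too, but level with other libraries. For the other lists given here it stood below the top, and the ranges include HH 1 itself. Macrophage and leukocyte promoters with a peak numbered 6 of 12, where libraries ranged from 3 to 8 and HHC 1 was highest. That list ran from Cd68 (a lysosomal protein of macrophages) in 22 libraries to Fcgr1 (an Fc receptor) in 0. Mesothelial promoters in HH 1 numbered 1 of 8 against a range of 0 to 6, with Lrrn4 open in 16 libraries and Gpm6a in 0. Pericyte and smooth muscle promoters numbered 7 of 8 against a range of 3 to 7, with Acta2 (smooth muscle actin) open in 22 libraries and Rgs5 (a pericyte marker) in 0. Progenitor promoters numbered 7 of 8 against 5 to 7, with Pdgfra open in 22 and Lum (lumican) in 4. Promoters of other organs numbered 2 of 12 against 1 to 5, and over all coding genes 13099 had a promoter peak in HH 1 against 12422 to 13889. HHC 3 differed from HH 1 in that its mesothelial count, 6 of 8, was the highest of all. Fewer nuclei of a type and a weaker opening in each nucleus cannot be told apart in these bulk libraries.

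**Figure D3:**
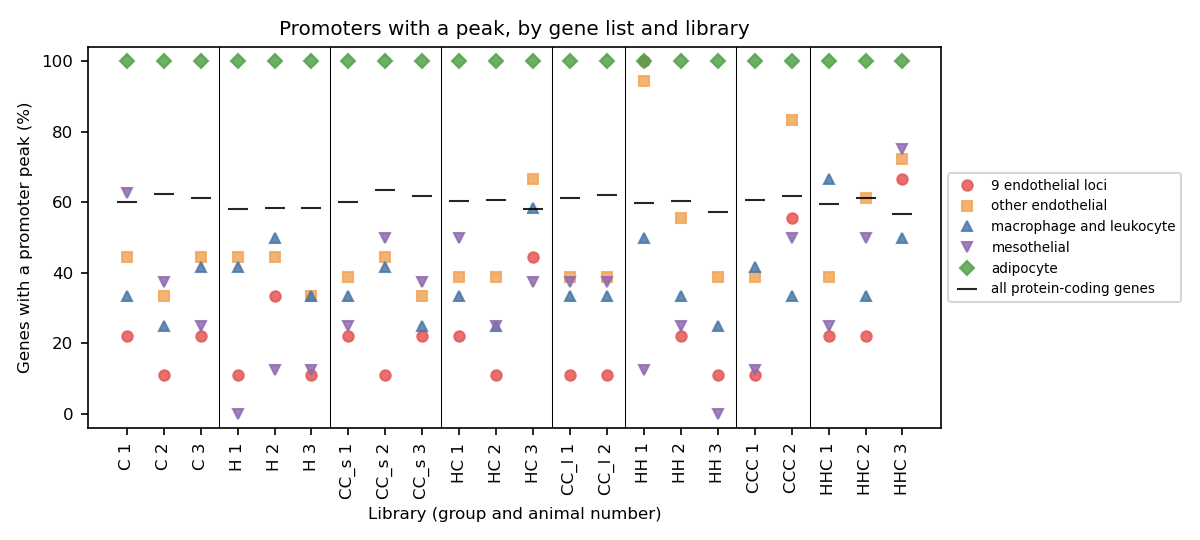
Percentage of genes with a peak within 2000 bp of a start site in each of 22 libraries, by gene list; each point is 1 library and list, and a dash is the share over all protein-coding genes. The adipocyte list is at 100% throughout, and both endothelial lists (circles and squares) stand highest in HH 1, at 100% and 94.4%.

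Regions called in 1 library only were unevenly spread at the 9 loci. Merging the peaks of all libraries gave 92 regions there, of which 44 were called in 1 library only, against 48481 of 104657 over the genome. HH 1 held 20 of those 44, HHC 3 held 10 and HC 3 held 6. Over the genome HH 1 held 8.95% of such regions, HHC 3 held 33.8% and HC 3 held 35.3%. The 20 of HH 1 lower the share left to any other library at these loci, so HHC 3 and HC 3 are not compared with the genome. No difference in shares was tested. Of the 92, 5 were called in all 22 libraries, 2 in Pecam1, 2 at Flt1 and the 1 that spans Egfl7 and Agpat2, and none of the first 4 held a start site of its gene.

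The Cdh5 locus was covered more widely by peaks in H and HH than in their controls, in 5 of the 6 libraries without a promoter peak. For the tests, each library's summed signal per locus was put on a common log2 scale by rank, with a floor at 14.06 for loci outside the top 16741, and groups were compared with limma. The covered share of Cdh5 (chr8:104101625-104144511, plus strand) was 0%, 2.65% and 0% in C and 26.0%, 22.5% and 8.69% in H. It was 2.28% and 2.27% in CC_l and 19.9%, 8.74% and 10.4% in HH. Neither pair overlapped. All C and CC_l libraries lay tied at the floor of the log2 scale, so no fold is given, and Cdh5 entered the tests only through the H and HH libraries. Its p-values are given as a description beside these values and add no support to them. In H against C, 6 of the 9 loci could be tested, and 1 of them, Cdh5, was called higher (adjusted p = 0.0125 in limma) where 11% of 17024 loci were called. Over both arms (H and HH against C and CC_l) all 9 could be tested, and again Cdh5 alone was called (adjusted p = 0.00935) where 8.27% of 18628 loci were called. Shares of 1 in 6 and 1 in 9 are near these backgrounds and are no result about the 9 genes as a set. The 1868 loci called in H against C were 1125 higher and 743 lower, and with each library's signal divided by its sum in place of ranks they were 707 higher and 701 lower. The Cdh5 call over both arms held in 28 of 29 alternatives, and was lost with maximum signal in place of summed signal (adjusted p = 0.0826). In H against C it held in 8 of 12 and was lost with maximum signal (0.119) and without C 2 (0.0567), H 1 (0.0515) or H 2 (0.0596).

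Inside Cdh5, peaks recurred at 2 places in 5 of the 6 libraries of obese mice, beside peaks elsewhere. Region chr8:104119573-104129587 overlaps 4 exons, starts 17.9 kb after the Cdh5 start and had the smallest p of the regions at these loci in H against C (adjusted p = 0.0109 in limma). It too entered the test only through H, since its summed signal was 0 in all 3 C libraries, and its p is likewise a description. Its summed signal was 72585, 51218 and 42207 in H. It was 0 in both CC_l libraries and 16382, 29335 and 48897 in HH. The part shared by most peaks, chr8:104125854-104127794, lay 24.2 to 26.2 kb after the start and had a peak in H 1, H 2, H 3, HC 1, HC 2, HH 2, HH 3 and HHC 3. A further region at the end of the gene, chr8:104136298-104147916, was called too (adjusted p = 0.0489). It also entered the test through H alone, with C 1 and C 3 at the floor and C 2 just above it. Its shared part, chr8:104137701-104138975, lay 36.1 to 37.4 kb after the start and had a peak in H 1, H 2, H 3, HC 1, HC 2, HH 2 and HH 3. Both shared parts were outlined after the peaks were seen, as the stretch common to the peaks of H 1, H 2, H 3, HC 1, HC 2, HH 2 and HH 3. That these 7 libraries had a peak over both parts was therefore fixed by the outline. No control library had a peak over either, which is a description only, since the parts were chosen from libraries of mice once on HFD. In C 2, CC_s 1, CC_l 1 and CC_l 2 the one peak of the locus lay further on, past the end of the gene. Promoter peaks of Cdh5 were called in HH 1, CCC 2 and HHC 3. That of HH 1 stood highest within its own library among the promoter peaks of the 8 genes, with a maximum signal of 64 (percentile 88.2) and its highest point at −3 bp from the start, and HH 1 had a peak over neither shared part. The call of the second region held in 4 of 11 alternatives. That of the first held in 8 of 10 and was lost without C 1 (adjusted p = 0.0546) or C 2 (0.0763).

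**Figure D4:**
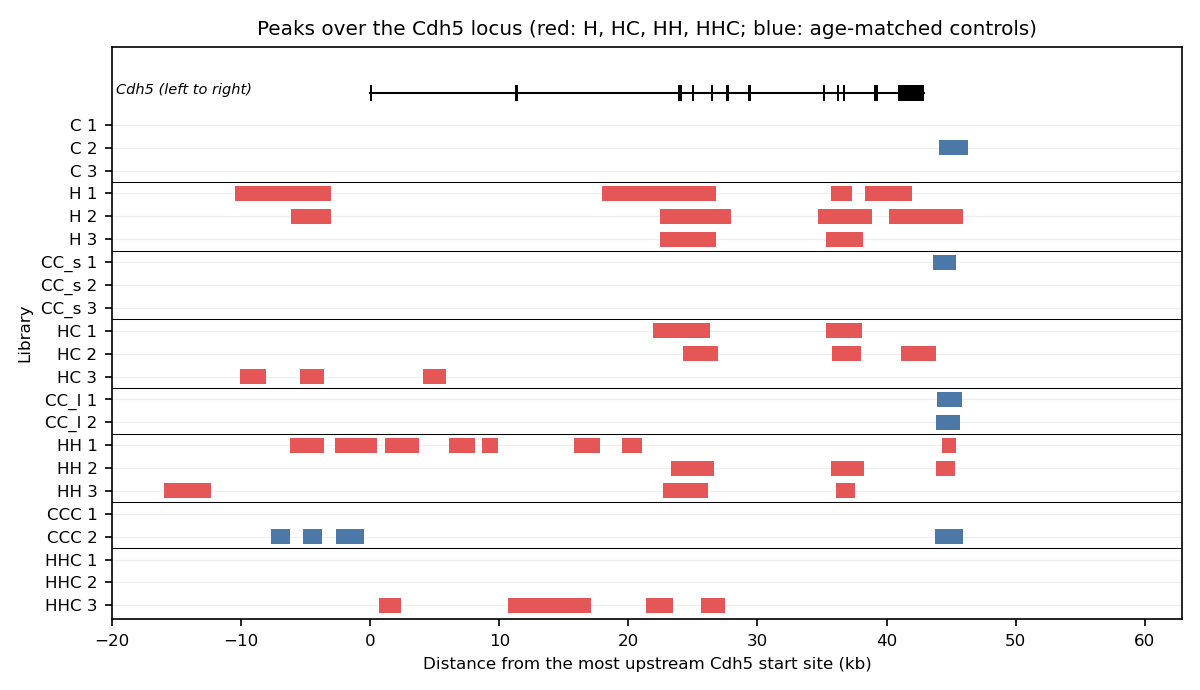
Peaks (bars) over the Cdh5 locus in each of 22 libraries, as distance in kb from its start site, with exons as boxes above. Red bars are H, HC, HH and HHC, blue bars their age-matched controls; peaks near 25 kb and 37 kb recur in H, HC and HH, while peaks near 0 kb are found in HH 1, CCC 2 and HHC 3.

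After WL the Cdh5 locus was not called. Its covered share was 8.74%, 9.24% and 6.69% in HC against 2.17%, 0% and 0% in CC_s, which did not overlap, and 0%, 0% and 14.5% in HHC against 0% and 8.79% in CCC, which did. The 3 peaks of HC 3 lay between −10064 and 5851 bp from the start, away from both shared parts. In HC against CC_s the adjusted p was 0.279, and over both arms after WL it was 0.343. Whether the difference after WL is smaller than that in obesity was not tested. No locus of the 9 was called after WL. In HC against CC_s 0% of 16943 loci were called, with 1521 at an unadjusted p under 0.05. For HHC and CCC the numbers were 0% of 17388 loci called and 704 under that p. Over both arms 2.2% of 18628 loci were called and none of the 9 was among them. In HH against CC_l 0.00579% of 17258 loci, or 1 locus, was called, with 2090 under that p, and that locus was not one of the 9.

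None of the other 8 loci was called in any pair or over both arms. The Flt1 locus differed by 1.11 ± 0.40 (log2, SE) in H minus C, by 1.94 ± 0.70 in HC minus CC_s, by 0.90 ± 1.00 in HH minus CC_l and by 0.93 ± 0.83 in HHC minus CCC, with adjusted p of 0.114, 0.513, 0.762 and 0.856. All 4 differences were above 0 and none passed. The sign in HH rested on HH 1, at 19.40 against 16.23 in HH 2 and 16.31 in HH 3, beside 16.86 and 15.96 in CC_l. The sign in HHC rested on CCC 1, at 15.37 against 17.55 in CCC 2, beside 16.83, 16.86 and 18.47 in HHC. Erg differed by 0.47 ± 0.30, 1.03 ± 0.53, 1.01 ± 0.88 and −0.09 ± 1.32 in the same order, Pecam1 by −0.15 ± 0.22, 0.22 ± 0.41, 0.97 ± 0.66 and −0.58 ± 0.67, and Egfl7 by 0.21 ± 0.24, 0.27 ± 0.25, 0.51 ± 0.12 and −0.58 ± 0.23. Single libraries carried much of this. In HH 1 Erg stood at 19.39 against 16.48 and 16.69 in HH 2 and HH 3, and Pecam1 at 19.33 against 17.31 and 17.17. Erg also stood at 18.06 in HC 3 against 16.14 and 16.29 in HC 1 and HC 2, and at 17.72 in CCC 2 against 15.31 in CCC 1. The smallest adjusted p among these loci was 0.114, for Flt1 in H against C. Groups did not overlap for Flt1 and Erg in HC and CC_s (HC higher), or for Pecam1 and Egfl7 in HH and CC_l (HH higher). Nor did they for Egfl7 in HHC and CCC (HHC lower) and for Emcn in H and C, where C lay at the floor. No adjusted p passed. How many of all loci do not overlap in these pairs was not counted, so this is no result about the 9 genes. Kdr, Tek and Tie1 lay at the floor in nearly all libraries, with 4, 4 and 3 of 22 above it, and entered few tests. In obesity over both arms Kdr had an adjusted p of 0.651, Tek 0.611 and Tie1 0.666. Between control groups of the same arm, CC_s against C and CCC against CC_l, 4 of the 9 could be tested and none was called. Of all loci, 0 of 16877 and 0 of 16994 were called there. The test of whether the arms differ called none of the 9 for obesity or for WL. It called 0 of 18628 loci for obesity and 1 of 18628 for WL, so these counts say nothing about the 9 genes.

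Calls of single regions depended on the scaling. In H against C, 17 regions at the 9 loci could be tested and 2, both in Cdh5, were called where 8.28% of 30840 regions were. With signal divided by the library's sum in place of ranks, 6 of 18 were called in H against C, in Flt1, Emcn and Erg as well as Cdh5, and 2 of 18 in HH against CC_l, 1 in Flt1 and 1 in Cdh5. In HC against CC_s none of 11 was called (0% of 29698 regions, 3563 at an unadjusted p under 0.05), in HH against CC_l none of 16 (0% of 33619, with 4604) and in HHC against CCC none of 17 (0% of 32737, with 2011). The region of smallest p in HH against CC_l was chr5:147670661-147673461, which overlaps 1 exon of Flt1 at 52.5 kb from its nearest start. Its summed signal was 26124, 25045 and 23688 in H and 15400, 30930 and 24706 in HH, and it had no peak in any of the other 16 libraries. Its adjusted p was 0.237 in HH against CC_l and 0.0437 in H against C, where the log2 difference missed the limit of 1. It entered both tests only through the obese mice, and these p-values are a description. In HC against CC_s the smallest p fell on the tall Flt1 intron region described above (adjusted p = 0.382). In HHC against CCC it fell on chr11:106718313-106725609 in a Pecam1 intron (adjusted p = 0.793), with a summed signal of 10911, 0 and 0 in HHC and 28942 and 38784 in CCC.

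Regions that hold a start site were called in few libraries, 10 for Flt1, 4 each for Erg, Kdr and Tek, 2 for Cdh5, and 1 each for Pecam1, Tie1 and Emcn. For the Flt1 start region, chr5:147723180-147729086, the log2 difference was −0.11 ± 0.26 in H minus C (adjusted p = 0.792), 1.04 ± 0.51 in HC minus CC_s (0.463) and −0.20 ± 0.34 in HHC minus CCC (0.873). The start region of Egfl7 and Agpat2 differed by 0.06 ± 0.14 in H minus C (0.782), 0.15 ± 0.15 in HC minus CC_s (0.703), 0.21 ± 0.16 in HH minus CC_l (0.575) and −0.41 ± 0.19 in HHC minus CCC (0.805). None of these passed the test, although the Egfl7 and Agpat2 region was lower in all 3 HHC than in both CCC libraries.

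The genes of the ligands had promoter peaks in most libraries. Of 6 ligand genes, Vegfa and Angpt1 had promoter peaks in 22 libraries, Vegfc in 21, Vegfb in 20, Angpt2 in 14 and Pgf in 10, or 82.6% of 132 pairs. In H against C, 3 of the 6 loci were called, 2 higher and 1 lower, where 11% of all loci were. Vegfa, the ligand of Kdr and Flt1, had a locus signal of 20.28, 20.18 and 19.89 (log2) in C and 19.30, 19.27 and 19.59 in H. It fell by 0.73 ± 0.14 (SE, n = 3 and 3, adjusted p = 0.0281 in limma). Angpt2, the angiopoietin that can block Tek, had 18.01, 17.38 and 17.32 in C and 19.18, 19.13 and 19.03 in H, a rise of 1.54 ± 0.20 (adjusted p = 0.0119). The Angpt2 gene lies within Mcph1, so that its locus signal is shared with that gene. Vegfc, the lymphatic growth factor, had 14.80, 14.62 and 14.21 in C and 16.32, 16.77 and 15.35 in H, a rise of 1.61 ± 0.39 (adjusted p = 0.0436). No 2 of these groups overlapped. Angpt1, the ligand that activates Tek, was called over both arms of obesity, where it fell by 0.86 ± 0.17 (adjusted p = 0.0062).

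These ligand calls were not equally firm. Angpt1 held in 29 of 30 alternatives and was lost with maximum signal (adjusted p = 0.644). Angpt2 held in 9 of 13 and was lost with maximum signal (0.551) and without C 2 (0.0534), H 1 (0.054) or H 2 (0.0574). Vegfa held in 7 of 13, and was lost without the 20 kb on each side (0.0643), with the replicate number as a block (0.0779) and without C 1, C 2, H 1 or H 2 (0.061 to 0.104). Vegfc held in 2 of 12 and was lost without any 1 of the 6 libraries but H 3. In HH, Angpt2 was 17.81, 19.09 and 18.89 against 18.58 and 18.54 in CC_l, which overlap, and the difference over both arms was 0.79 ± 0.28 (adjusted p = 0.0974). Pgf differed by −0.89 ± 0.31 (0.0883) and Vegfb by −0.05 ± 0.11 (0.861) over both arms of obesity. After WL none of the 6 was called over both arms, with adjusted p from 0.0861 to 0.478.

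**Figure D5:**
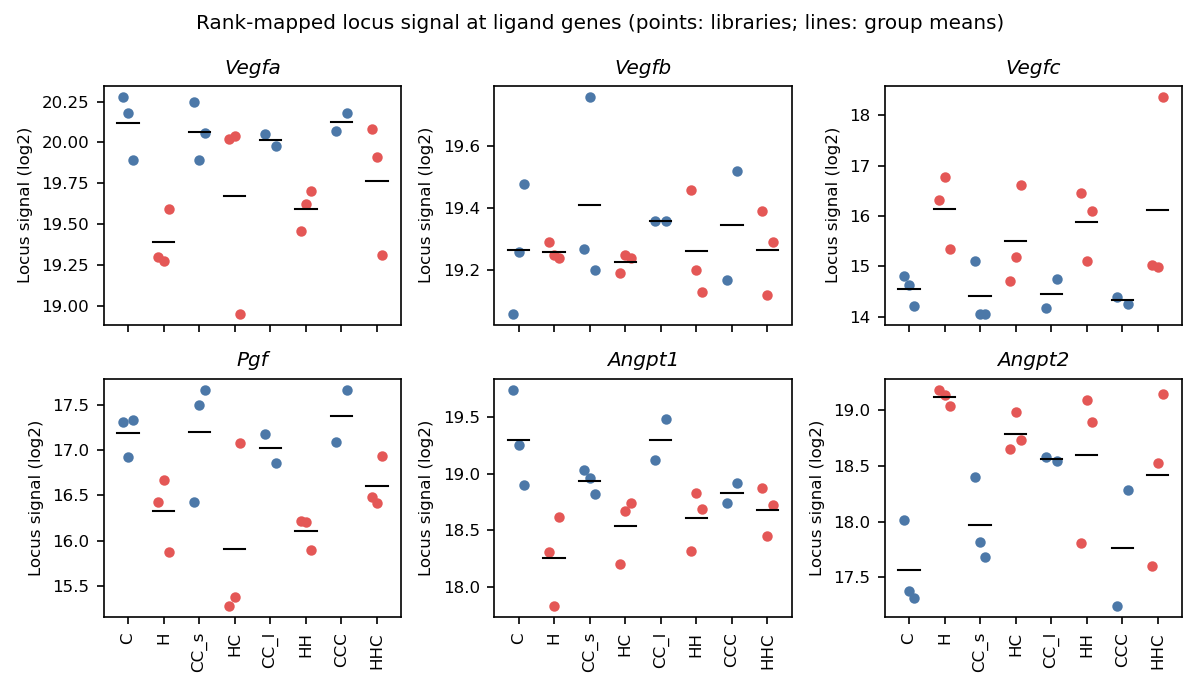
Locus signal (log2, on the scale set by rank) of 6 ligand genes in each of 22 libraries (points) by group, with group means as lines; blue points are controls and red points H, HC, HH and HHC. Vegfa is lower and Angpt2 and Vegfc higher in every H library than in every C library, while Vegfb does not separate the groups.

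Of the second endothelial list all 18 loci could be tested, and their median difference in H minus C was 0.09 against −0.01 over all loci. Of these, 4 were called where 11% of all loci were. Icam2, an adhesion molecule, was called higher (adjusted p = 0.0149 in limma) from 14.06, 14.06 and 14.22 in C, at or near the floor, to 15.57, 15.86 and 15.37 in H. It entered the test only through H, so that its p is a description, and its locus also holds the starts of Prr29 and Ern1, whose signal cannot be told apart from its own. Sox7, a transcription factor of vessels, fell by 1.73 ± 0.38 (0.0347), Cd34, a surface protein, fell by 1.10 ± 0.20 (0.0233) and Vwf fell by 1.06 ± 0.25 (0.041). The locus of Sox7 also holds the start of 4930578I06Rik and that of Vwf the start of Ano2, and their signal cannot be told apart either. Icam2, Sox7, Cd34 and Vwf are named because they were called, and held in 5 of 11, 6 of 13, 5 of 12 and 3 of 12 alternatives. Over both arms of obesity Icam2 was called higher (adjusted p = 0.0282) and Vwf fell by 0.93 ± 0.24 (0.0274), 2 of 18 where 8.27% of all loci were called. The Icam2 call over both arms held in 19 of 29 alternatives, and without the 20 kb on each side the difference was 0.27 (adjusted p = 0.575). None of the 18 was called after WL. Of the other lists in H against C, with the same background of 11%, 0 of 8 macrophage and leukocyte loci tested were called, 1 of 6 pericyte and smooth muscle loci was higher, and 1 of 6 mesothelial, 1 of 8 progenitor and 1 of 12 adipocyte loci were lower.

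The genes whose locus signal over the 22 libraries ran most like the median of the 9 were Tfpi2 (Spearman's rho = 0.905), Ercc1 (0.898), Tex14 (0.894), Rell1 (0.894) and Iqsec1 (0.893), of 18606 compared. That median, on the log2 scale, was 14.06 in all C libraries, 15.99 to 16.87 in H, 14.06 to 14.28 in CC_s, 15.58 to 16.34 in HC, 14.06 and 14.15 in CC_l, 15.70 to 18.26 in HH, 14.06 and 16.19 in CCC, and 14.06, 14.06 and 18.35 in HHC. It is a score over genes of which most were not called, and it was not tested. The 5 genes and the median share the libraries and their depth. Tfpi2 had a promoter peak in 15 libraries and the other 4 genes in 22.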

How the data were processed

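ATAC–seq was run on adipocyte nuclei of 22 mice, and groups were taken from the labels. The deposited files are 1 peak list per library. They hold signal values that the authors made by trimming reads with Trim Galore 0.6.6, aligning them with Bowtie2 2.4.4 to GRCm38, sorting with SAMtools 1.13, turning them into coverage with bedtools 2.30 and calling peaks per library with SEACR 1.3 in stringent mode. Column 4 is the summed and column 5 the maximum signal of a peak, with no normalization stated and no read counts, so depth is unknown and no count test could be used. Blacklisted peaks were removed per the methods. Whether before deposit is not given in the sources used here. Low libraries give fewer strong and shorter peaks, which can move any locus value.

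Gene spans came from GENCODE on GRCm38, and loci were extended by 20 kb on each side. The summed signal of all peaks that overlap a locus by at least 1 bp was ranked within a library, and the top 16741 loci were given the mean log2 value of their rank, the rest a floor of 14.06. The same was done for 104657 regions made by merging all peaks, with the top 30083 ranked and a floor of 14.01. A locus or region entered a test when it exceeded the floor in a number of libraries no lower than the smaller group's n (2 over both arms), and was compared with limma 3.58.1 (trend) in R 4.3.3, and p-values were adjusted by Benjamini-Hochberg over all of them. Loci were called at adjusted p under 0.05, regions also needed a log2 difference over 1. The fit was tested on simulated data. Each library is 1 animal, and p-values measure the spread between animals. Python 3.11.15 with pandas 2.3.3 did the rest.

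All 9 genes, coding genes starting in their loci, regions that hold a start site or have the smallest p of a pair, the list genes with most and fewest promoter peaks, and the 5 genes most alike were named. A result that this rule would add is not reported here. Ligand genes and list genes were also named where they were called. The members and lists were chosen with earlier results of these data known. Alternatives were maximum signal, signal scaled to the part inside the locus, no extension, signal divided by the library's sum, the 10000 strongest peaks, no filter, other promoter windows, a replicate block and leaving out each library. Leaving out the 5 libraries with a median maximum signal under 40 was chosen after seeing the data.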

Additional observations from a re-analysis of the deposited data

How the results depend on the processing

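The Cdh5 call kept its direction under every alternative run for H against C and for obesity over both arms. With all C and CC_l libraries at the floor of the rank scale a reversal was hardly possible, so the direction adds no support. Losses of the call are given with the result. Of 791 alternative fits of the 9 loci, 743 kept their direction and their side of the threshold, 41 uncalled ones changed sign and stayed uncalled, 5 calls of Cdh5 were lost and 2 were gained, Egfl7 without C 3 (adjusted p = 0.0495 in limma) and Emcn with signal divided by the library's sum (0.0415), both in H against C. Of 626 alternative fits of their regions, 556 kept both, 55 uncalled ones changed sign, 9 calls were lost and 6 gained.

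Counts of called loci and regions moved more. With maximum signal, called loci numbered 605 in H against C, 8 in HC against CC_s, 0 in HH against CC_l, 3 in HHC against CCC, 523 over both arms of obesity and 82 over both arms of WL, and 6 regions were called in HC against CC_s. Without extension they numbered 722, 6 and 18 in the first 3 pairs, 805 in obesity and 194 in WL. With the 10000 strongest peaks they were 645 in H against C, 0 in HH against CC_l, 614 in obesity and 191 in WL, with 326 regions in H against C. Promoter peaks then stood at 12.6% of pairs, against 30.3% over all protein-coding genes. With signal divided by the library's sum they were 0 in HH against CC_l, 642 and 244, with 2565 regions in HH against CC_l, and the median of all loci moved by −0.10 in H, −0.31 in HC, −0.15 in HH and −0.19 in HHC against their controls, −0.11 in obesity and −0.21 in WL. Scaling signal to the part inside the locus gave 9 in HH against CC_l, and no filter gave 0 there and 1171 regions in H against C. At an unadjusted p under 0.01, 754, 902 and 231 regions passed in HC, HH and HHC against their controls. Without the 5 libraries of low signal, 3566 loci were called in obesity, 153 in WL, and promoter peaks stood at 17% of pairs, against 60.4% over all genes. The cause of these shifts was not tested.

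Replicate numbers did not pair the animals, since deviations of same-numbered libraries correlated at −0.0955 to 0.114 in H and C, at −0.211 to 0.104 in HC and CC_s, at 0.137 and 0.100 in HH and CC_l and at 0.222 and −0.175 in HHC and CCC. With the replicate block, 358 loci were called in H against C and 0 in HH against CC_l, with 156 regions in HH against CC_l and 1 in HHC against CCC, and Cdh5 stayed called in H against C (adjusted p = 0.042) and in obesity (0.0183).

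Leaving out 1 library gave 202 (without C 2) to 1383 (without H 3) loci in H against C, 0 to 1 (without HC 3) in HC against CC_s, 0 to 170 (without HH 1) in HH against CC_l, 0 in HHC against CCC, 604 (without CC_l 1) to 2214 (without HHC 3) in obesity and 72 (without CCC 2) to 1253 (without CC_s 1) in WL. Regions ranged from 147 (without C 2) to 2606 in H against C, 0 to 82 (without HC 3) in HC against CC_s, 0 to 412 (without CC_l 2) in HH against CC_l and 0 to 116 (without CCC 1) in HHC against CCC. Promoter peaks ranged from 22.8% (without HH 1) to 27.0% of pairs. Where a group was left with 1 library, that library was assumed to vary like the others.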
